A study of Rattus norvegicus with 20 samples.

Results

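The genes of the proteasome, the protease that removes ubiquitin-tagged proteins, were followed through 20 bulk RNA-seq libraries of rat kidney. Members were the rows of the deposited expression table whose symbol reads Psm, then a letter from a to g, then a number. Among 34681 rows 46 matched. Of these 45 held 10 or more in 3 or more libraries and were tested, within 15954 rows in all. Psma8, a testis-specific alpha subunit, was the member left out, with values from 0 to 13.7. Psmd11, Psmb11, Psmg1 and Psmg3 are not analysed here.

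The study looked at acute kidney injury after trauma. RNA came from rat kidneys frozen in nitrogen, and stranded mRNA libraries were sequenced in pairs of reads. Labels place 6 libraries in Sham, 6 in RM, 5 in HS and 3 in RM-HS, where the series' design text counts 5 for RM and 19 in all; the labels were followed. The labels do not spell out RM and HS, which are taken here as rhabdomyolysis, the breakdown of skeletal muscle, and haemorrhagic shock, with RM-HS as both together. Strain, sex, age, the way of injury and the time from injury to sampling are not stated by the labels. Nothing says that libraries came from separate animals, so p-values measure the spread between these libraries, which may be technical.

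The 20S core of the proteasome is a barrel of stacked rings. Alpha subunits (Psma genes) form the outer rings and the gate, and beta subunits (Psmb genes) form the inner rings, where Psmb5, Psmb6 and Psmb7 carry the protein-cutting sites. The 19S cap binds ubiquitin chains, unfolds the substrate with a ring of ATPases (Psmc genes) and feeds it into the core, with non-ATPase subunits (Psmd genes) as base and lid. Interferon induces Psmb8, Psmb9 and Psmb10, which take the places of the cutting subunits in newly made immunoproteasomes and alter the peptides offered to MHC class I. When proteasome activity falls short, the transcription factor NRF1 (Nfe2l1) is known to raise proteasome genes through antioxidant response elements. In the kidney, tubule cells take up and break down much filtered protein.

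Stretches upstream of the transcription start are shown for 6 members: Psmd5, which changed most, 3 members that hold the core of the antioxidant response element and moved in different directions, and 2 interferon-inducible members that hold an interferon regulatory factor site. They are from RefSeq, build GRCr8, on the strand of the gene, 5′ to 3′. Capitals mark each match of TGACNNNGC (the antioxidant response element core) in Psmd1, Psmb2 and Psmb5, or of GAAA, any 2 bases and GAAA again (the interferon regulatory factor site) in Psmb10 and Psme2; Psmd5 holds neither in the window searched and its last 100 bases before the start are given.
Psmd5 (chr3:38548491-38548590, minus strand): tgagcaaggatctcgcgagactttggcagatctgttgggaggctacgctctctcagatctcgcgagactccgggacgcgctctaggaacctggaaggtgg
Psmd1 (chr9:94157766-94157854, plus strand): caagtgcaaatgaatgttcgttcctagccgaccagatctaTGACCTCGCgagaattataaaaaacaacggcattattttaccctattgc
Psmb2 (chr5:144254950-144255038, plus strand): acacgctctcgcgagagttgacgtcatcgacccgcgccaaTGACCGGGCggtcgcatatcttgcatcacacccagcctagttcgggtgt
Psmb5 (chr15:32047391-32047479, minus strand): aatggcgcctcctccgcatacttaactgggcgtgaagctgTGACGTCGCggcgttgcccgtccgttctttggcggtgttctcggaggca
Psmb10 (chr19:50743293-50743405, minus strand): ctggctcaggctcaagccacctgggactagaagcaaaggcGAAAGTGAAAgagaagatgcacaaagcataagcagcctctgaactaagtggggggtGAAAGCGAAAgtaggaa
Psme2 (chr15:33052755-33052844, minus strand): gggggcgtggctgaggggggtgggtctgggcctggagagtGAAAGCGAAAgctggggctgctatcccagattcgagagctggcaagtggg

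RefSeq windows of 300 bases, from 250 before to 50 after the start, were at hand for 41 of the 45 members. Both strands were searched. TGACNNNGC was found in 8 members (19.5%), namely Psma3, Psmb2, Psmb5, Psmb6, Psmd1, Psmd3, Psmd9 and Psme4, and in 12.1% of all 33469 windows. The interferon regulatory factor site was found in 7 members (17.1%), namely Psma4, Psmb3, Psmb8, Psmb10, Psmd7, Psme2 and Psmg4, and in 3.92% of all windows. CCAAT, the NF-Y box, was found in 22 members (53.7%) and in 37.5% of all windows; in Psmb2 its last base is the first base of TGACCGGGC. A match is a run of letters and not a known binding site.

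Each library held between 45047179 and 109940948 reads, of which 42.2% to 54.7% lay on 14 mitochondrial rows. Kidney identity markers were present throughout: none of Umod, Slc12a1, Slc12a3, Aqp2, Nphs1 and Cdh16 was below 137 in any library. They moved with the groups: Aqp2 of the collecting duct and Slc12a1 of the thick ascending limb fell in RM, HS and RM-HS (log2 from -2.56 to -1.67), Umod fell in RM and by 1.21 in HS, Cdh16 fell by 0.44 in HS, and Nphs1 of podocytes rose by 2.16, 1.73 and 2.06. Their part in the proteasome differences was not tested. The Sham libraries were not alike. Slc5a2, a glucose transporter of the early proximal tubule, was at 6791 and 7863 in Sham 1 and Sham 6 but between 43.1 and 396 in Sham 2 to Sham 5, and between 9389 and 19919 in the injured groups. Library names begin with R or S: all Sham and RM-HS libraries, RM 1 and HS 1 to HS 3 begin with R, while RM 2 to RM 6, HS 4 and HS 5 begin with S. The labels do not say what the letter stands for. Comparisons were therefore also made with Sham 1 and Sham 6 as the only controls, with the letter as a covariate, and within a letter.

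More of the proteasome rose than fell in RM and in RM-HS, and rises and falls were about even in HS. Against Sham, 20 of 45 members rose and 5 fell in RM by limma at an adjusted p under 0.05, where 26.2% of all rows tested rose and 26.8% fell. In RM-HS 12 rose and 2 fell, with 21.3% and 21% of all rows as background. In HS 7 rose and 8 fell, with 23.3% and 23.2% as background. These counts take in the immunoproteasome, and Psmc3ip and Psme3ip1, which are no part of the proteasome. Among the 40 other members, 20 rose and 4 fell in RM, 7 and 7 in HS, and 11 and 1 in RM-HS. The changes were small beside those of other genes: the median size of a log2 difference, whatever its sign, was 0.24 over the members and 0.50 over all rows in RM, 0.15 and 0.46 in HS, and 0.19 and 0.49 in RM-HS. In RM every library was above every Sham library for 8 members and below for 2, where 13.3% and 12.4% of all rows were so. In HS these counts were 2 and 2 (13.7% and 12.2%), and in RM-HS 11 and 1 (16.5% and 16.1%). These comparisons share the same 6 Sham libraries. Fold changes are on the scale of log2(value + 1), which understates changes of low genes, and in bulk tissue fewer cells of a type and less RNA per cell cannot be told apart.

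The balance of rises and falls depended on the scaling of the libraries. Scaled by the upper quartile, 8 members rose and 9 fell in RM, and 3 rose and 15 fell in HS. In RM-HS 5 rose and 5 fell. Calls gained by upper-quartile scaling were all falls, of Psma7, Psmb8, Psmc3 and Psmf1 in RM. They were of Psma4, Psmb1, Psmb7, Psmc3, Psmd4, Psmd13 and Psmf1 in HS, and of Psma4, Psmb5 and Psme1 in RM-HS. Of all rows, 20.4% rose and 34.7% fell in RM under that scaling. In HS 18.4% of all rows rose and 29.5% fell, and in RM-HS 16.2% and 27.7%. That scaling moved the median of all rows by -0.14, -0.12 and -0.13 on the log2 scale. Relative to the median of all rows, the median member was 0.20 higher in RM under both scalings, 0.17 higher in RM-HS under both, and -0.01 in HS under the deposited scaling and -0.02 under the upper quartile. With trimmed-mean scaling 9 rose and 6 fell in HS, where 24.6% of all rows rose and 21.5% fell. With the letter as a covariate 9 rose and 2 fell in RM, where 15.2% of all rows rose and 13.3% fell. Within the letter R, RM is the single library RM 1, so few calls could be made: 2.88% of all rows rose and 1.92% fell, and 0 members passed. With Sham 1 and Sham 6 as the only controls 20 rose and 1 fell in RM, and 4 rose and 1 fell in HS. In RM-HS 11 rose and 1 fell with these controls. Of all rows, 18% then rose and 14.9% fell in RM, 14.6% and 11.1% in HS, and 15% and 12.3% in RM-HS. Fitted without HS and RM libraries, RM-HS had 7 rises and 1 fall, where 17.6% of all rows rose and 18.4% fell. Without RM-HS 1 or without RM-HS 3 it had 9 calls in all. Of all rows, 16.4% rose and 15.3% fell without RM-HS 1, and 18.1% and 17.7% without RM-HS 3.

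**Figure D1:**
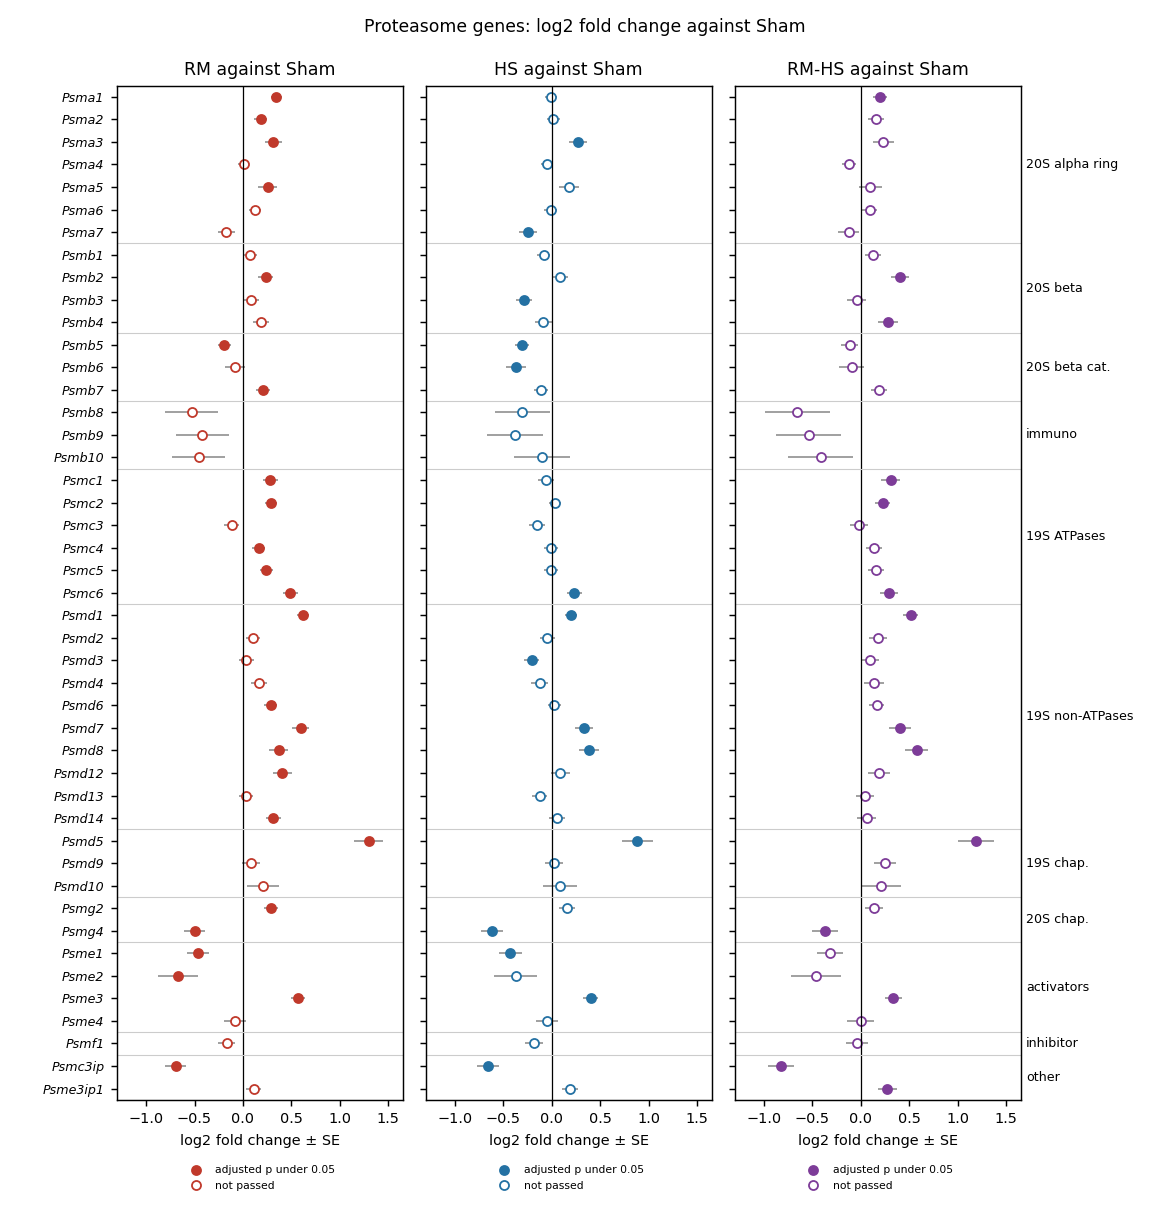
Log2 fold change against Sham (x axis, with the standard error as a bar) of 45 proteasome genes (y axis, grouped by role) in RM, HS and RM-HS. Filled points passed at an adjusted p under 0.05: most filled points of the 19S genes lie to the right in RM, 20S beta points lie to the left in HS, and Psmd5 lies farthest right in each panel.

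Among the 10 non-ATPase subunits of the 19S cap, 6 rose in RM (Psmd1, Psmd6, Psmd7, Psmd8, Psmd12, Psmd14) and 0 fell. In RM-HS 3 rose, Psmd1, Psmd7 and Psmd8. In HS the same 3 genes passed as higher and Psmd3, a lid subunit, fell. Among all rows 26.2% rose and 26.8% fell in RM, 21.3% and 21% in RM-HS, and 23.3% and 23.2% in HS. Psmd1 (identifier GSRG0032436 in the deposited table, rn6 chr9:93080502-93155076), the large scaffold of the cap's base, ran from 2623 to 2982 with a median of 2685 in Sham and from 3491 to 4485 with a median of 4334 in RM, in normalised read counts. HS libraries held 3286, 3231, 3111, 3082 and 2979.6 and RM-HS libraries 3800.0, 3996 and 3951. Every RM and RM-HS library was above every Sham library, while HS overlapped Sham through its lowest library. The log2 difference from Sham was 0.62 ± 0.06 (SE) in RM, a 1.54-fold level, 0.20 ± 0.07 in HS and 0.52 ± 0.08 in RM-HS, with limma adjusted p of 1.6e-07, 0.017 and 2.9e-05. Its row overlaps that of Htr2b in the annotation.

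Psmd8 (GSRG0003206, rn6 chr1:88116812-88123643), a lid subunit, ran from 3919 to 6602 with a median of 5050.4 in Sham and from 6058 to 7395 with a median of 6412 in RM. It held 6139, 6435, 7206, 7131 and 6257 in HS and 7937, 8049.8 and 6775 in RM-HS. RM-HS lay wholly above Sham, and all RM and HS libraries were above every Sham library but Sham 2, the highest. Differences from Sham were 0.37 ± 0.10 in RM, 0.39 ± 0.10 in HS and 0.58 ± 0.12 in RM-HS, with limma adjusted p of 0.0031, 0.0037 and 5.9e-04. Psmd7, a partner of the deubiquitinase in the lid, rose by 0.59, 0.33 and 0.41 in RM, HS and RM-HS.

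Psmd14, the deubiquitinase that strips ubiquitin chains from substrates, rose in RM (0.31 ± 0.08, limma adjusted p = 0.0021) and was 0.05 ± 0.08 in HS and 0.06 ± 0.10 in RM-HS without passing. Psmd12 rose by 0.41 and Psmd6 by 0.29 in RM. The ubiquitin receptor Psmd4 was 0.17 in RM with an adjusted p of 0.094, and Psmd2, Psmd3 and Psmd13 were 0.10, 0.03 and 0.03 without passing. Psmd3 fell by 0.21 in HS (limma adjusted p = 0.038), a call lost without any 1 of HS 4, HS 5, Sham 2, Sham 4, Sham 5 or Sham 6, where the adjusted p ran from 0.061 to 0.1. Scaled by the upper quartile, Psmd6 and Psmd14 did not pass in RM, nor Psmd1 and Psmd7 in HS. Fitted with the letter as a covariate, the RM differences were 0.24 in Psmd6, 0.33 in Psmd8, 0.37 in Psmd12 and 0.18 in Psmd14 (limma adjusted p of 0.06, 0.085, 0.054 and 0.21), and the HS differences 0.17 in Psmd1 and -0.18 in Psmd3 (0.075 and 0.11).

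Of the 6 ATPases that unfold substrates, 5 rose in RM (all but Psmc3), 3 rose in RM-HS (Psmc1, Psmc2, Psmc6) and 1 rose in HS (Psmc6). As background, 26.2% of all rows rose in RM, 21.3% in RM-HS and 23.3% in HS. The ATPases thus did not rise more often than other rows in HS. Psmc6 (GSRG0010896, rn6 chr15:19667453-19688916) ran from 3574 to 3937 with a median of 3785 in Sham and from 4359 to 5767 with a median of 5465 in RM. It held 4462, 4510.1, 3706, 4892 and 4771 in HS and 4516, 4535 and 4877 in RM-HS. All RM and RM-HS libraries lay above Sham, and HS did so but for HS 3. Differences were 0.49 ± 0.08, 0.23 ± 0.08 and 0.29 ± 0.09, with limma adjusted p of 2.3e-05, 0.02 and 0.015 in RM, HS and RM-HS. The HS call was lost without HS 4 or HS 5 (adjusted p from 0.055 to 0.064) and the RM-HS call without RM-HS 3 (adjusted p = 0.069). The HS difference was 0.13 with the letter as a covariate (adjusted p = 0.15). Against Sham 1 and Sham 6 it was 0.18 in HS and 0.24 in RM-HS (adjusted p of 0.29 and 0.18).

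Psmc1 (GSRG0026356, rn6 chr6:124123270-124135644) ran from 4494 to 6151 with a median of 4911 in Sham and from 5709.5 to 6430.3 with a median of 6226 in RM. HS libraries held 5637, 5120.1, 4918, 4489 and 4159.6 and RM-HS libraries 6942, 5971 and 5897. In RM 4 of 6 libraries and in RM-HS 1 of 3 were above every Sham library, and 2 of 5 HS libraries were below every Sham library. Psmc1 rose by 0.28 in RM and 0.31 in RM-HS (limma adjusted p of 0.0068 and 0.018) and was -0.06 ± 0.09 in HS. Without RM-HS 1 its RM-HS difference was 0.23 with an adjusted p of 0.12. Psmc2 rose by 0.29 in RM and 0.23 in RM-HS, the second lost without RM-HS 2 or RM-HS 3 (adjusted p of 0.067 to 0.08). Psmc5 rose by 0.24 and Psmc4 by 0.16 in RM, and with the letter as a covariate they were 0.24 and 0.15 (limma adjusted p of 0.072 and 0.27). Psmc4's call was lost on leaving out any of 11 single libraries of RM, HS or Sham (adjusted p of 0.05 to 0.1). Scaled by the upper quartile, Psmc6 was the ATPase that still passed as higher in RM, Psmc3 passed as lower, and no ATPase passed as higher in HS or RM-HS.

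Of the chaperones that build the 19S base, Psmd5 changed far more than any other member and Psmd9 and Psmd10 passed in none of the 3 comparisons with Sham. Psmd5 (GSRG0020295, rn6 chr3:13916200-13933483), which holds an ATPase pair during assembly, ran from 1677 to 1877 with a median of 1713 in Sham and from 2575 to 4964 with a median of 4648 in RM. It held 3245, 3769.8, 3528, 2903 and 2709 in HS and 4734, 4827 and 2745 in RM-HS. Every injured library was above every Sham library; RM 1 and RM-HS 3 were the low ones of their groups. Its level was 2.45-fold Sham in RM (1.30 ± 0.15), 1.85-fold in HS (0.88 ± 0.16) and 2.29-fold in RM-HS (1.19 ± 0.18), with limma adjusted p of 8.4e-07, 1.5e-04 and 4.6e-05. With RM 1 as the only RM library the difference was 0.57 (adjusted p = 0.18), and in HS libraries named R alone it was 1.01 (adjusted p = 4.7e-04).

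Psmd9 (GSRG0009005, rn6 chr12:38784472-38804706) ran from 1029.6 to 1589 with a median of 1245 in Sham and from 1245 to 1419.6 with a median of 1293 in RM, with 1479, 1185, 1262, 1156 and 1225 in HS and 1652, 1431 and 1357 in RM-HS. All 4 groups overlapped. Its difference in RM-HS was 0.25 ± 0.11 with a limma adjusted p of 0.077. Psmd10, also known as gankyrin, was 0.20 ± 0.17 in RM, 0.08 ± 0.18 in HS and 0.21 ± 0.20 in RM-HS.

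**Figure D2:**
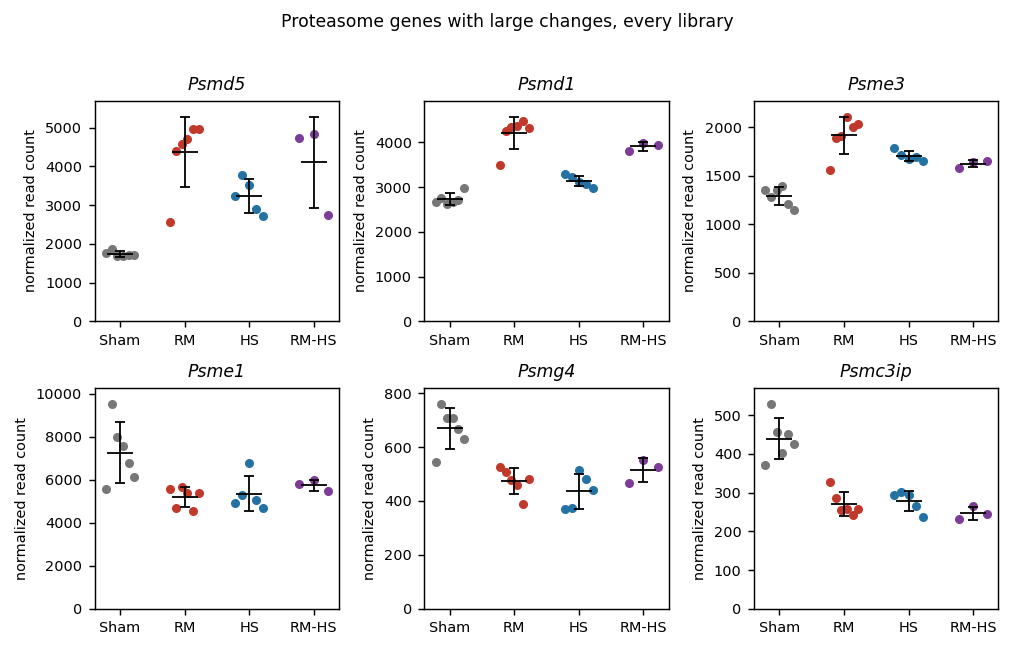
Normalised read counts (y axis, from 0) of 6 proteasome genes in every library of Sham, RM, HS and RM-HS (x axis), with the group mean as a line and the SD as a bar. Psmd5, Psmd1 and Psme3 stand higher in the injured groups and Psme1, Psmg4 and Psmc3ip lower; RM 1 is the low RM point of Psmd5, at 2575.

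In the alpha rings of the 20S core 4 of 7 subunits rose in RM (Psma1, Psma2, Psma3, Psma5), 1 rose in RM-HS (Psma1), and in HS Psma3 rose and Psma7 fell. The shares of all rows that rose were 26.2% in RM, 21.3% in RM-HS and 23.3% in HS, where 23.2% fell. Alpha subunits thus did not pass more often than other rows in RM-HS or HS. Psma1 (GSRG0004458, rn6 chr1:183732082-183744618) ran from 4759 to 5458 with a median of 5056 in Sham and from 5803 to 6743 with a median of 6598 in RM. It held 5515, 4921, 5051, 4933 and 4992 in HS and 6021, 5715 and 5856 in RM-HS. RM and RM-HS lay wholly above Sham, and HS overlapped it. Psma1 rose by 0.34 ± 0.06 in RM and 0.20 ± 0.07 in RM-HS (limma adjusted p of 4.9e-05 and 0.025) and was -0.01 ± 0.06 in HS. The RM-HS call was lost without RM-HS 1 or RM-HS 3 (adjusted p of 0.063 and 0.097).

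Psma3 (GSRG0026033, rn6 chr6:93422909-93444239), whose row also stands for Psma3l and may hold reads of both, ran from 1304 to 1732 with a median of 1506 in Sham and from 1493 to 2024 with a median of 1907 in RM. It held 1828, 1857, 1605, 1842 and 1875 in HS and 1855, 1846 and 1572 in RM-HS. The groups overlapped Sham in each case. Differences were 0.31 ± 0.09, 0.27 ± 0.09 and 0.24 ± 0.11 with limma adjusted p of 0.0048, 0.018 and 0.08. Psma2 and Psma5 rose by 0.18 and 0.26 in RM. The call of Psma2 was lost without any 1 of RM 4, RM 5, RM 6, Sham 1 or Sham 4 (adjusted p of 0.05 to 0.068), and that of Psma5 without any 1 of RM 2, RM 3, RM 6, Sham 1, Sham 3, Sham 5 or Sham 6 (0.056 to 0.09). Psma7 fell by 0.24 in HS, a call lost without any 1 of HS 2, HS 5, Sham 2, Sham 3 or Sham 4 (0.059 to 0.079), and was 0.0041 against Sham 1 and Sham 6. Psma4 and Psma6 passed in none of the 3. Scaled by the upper quartile, Psma1 was the alpha subunit that still passed as higher in RM and none did so in HS or RM-HS. Psma7 then passed as lower in RM, and Psma4 in HS and RM-HS. With the letter as a covariate Psma2, Psma3 and Psma5 were 0.15, 0.15 and 0.18 in RM (limma adjusted p of 0.24, 0.35 and 0.36), and Psma3 and Psma7 were 0.19 and -0.24 in HS (0.11 and 0.071).

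Of the 4 structural beta subunits, Psmb2 rose in RM and in RM-HS, Psmb4 rose in RM-HS, Psmb3 fell in HS, and Psmb1 passed in none. Psmb2 (GSRG0024335, rn6 chr5:144701974-144734222) ran from 7398 to 10331 with a median of 8719 in Sham and from 9747 to 10504 with a median of 10255 in RM. HS libraries held 10357, 9013, 9692, 9278 and 7855 and RM-HS libraries 10913, 12938 and 10800.2. RM-HS lay above every Sham, RM and HS library. Differences from Sham were 0.23 ± 0.08 in RM, 0.08 ± 0.08 in HS and 0.41 ± 0.10 in RM-HS (limma adjusted p of 0.017, 0.44 and 0.0023). With upper-quartile scaling the RM call was lost.

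Psmb4 (GSRG0036261, rn6 chr2:196043545-196046358) ran from 5299.8 to 7759 with a median of 7065 in Sham and from 7060.4 to 8109 with a median of 7934 in RM, with 6420.1, 6198, 7374, 6452 and 5674 in HS and 8018, 8786 and 8055 in RM-HS. Again RM-HS lay above Sham while RM and HS overlapped it. It was 0.19 ± 0.08 in RM (limma adjusted p = 0.064) and 0.28 ± 0.10 in RM-HS (0.028), the latter lost on leaving out any 1 of the RM-HS libraries (adjusted p of 0.053 to 0.11) and with upper-quartile scaling. Psmb3 fell by 0.29 in HS (limma adjusted p = 0.0071), and it did not pass against Sham 1 and Sham 6.

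Of the 3 cutting subunits of the constitutive core, Psmb5 fell in RM and HS, Psmb6 fell in HS, and Psmb7 rose in RM; none passed in RM-HS. Psmb5 (GSRG0011601, rn6 chr15:33259040-33263634), the chymotrypsin-like site that bortezomib blocks, ran from 4953 to 6611 with a median of 5999 in Sham and from 4923 to 5502 with a median of 5182 in RM. It held 5094, 4956, 5077, 4562 and 4251 in HS and 5206, 5948 and 5270.4 in RM-HS. All groups overlapped Sham, with HS 4 and HS 5 below every Sham library. Differences were -0.19 ± 0.07, -0.31 ± 0.07 and -0.11 ± 0.09, with limma adjusted p of 0.028, 0.0021 and 0.31. The RM call was lost without any 1 of RM 4, RM 6, Sham 2, Sham 3 or Sham 5 (adjusted p of 0.051 to 0.07). It was -0.09 with the letter as a covariate (adjusted p = 0.5), and both calls were lost against Sham 1 and Sham 6.

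Psmb7 (GSRG0020335, rn6 chr3:22890073-22951728), the trypsin-like site, ran from 5604 to 6971 with a median of 6052 in Sham and from 6599 to 7497 with a median of 7219.5 in RM, with 6408, 5659, 5354, 5573 and 5706 in HS and 6618, 7619 and 6931 in RM-HS. In RM 4 of 6 libraries were above every Sham library, and 2 of the 5 HS libraries were below every Sham library. It rose by 0.21 in RM (limma adjusted p = 0.015) and was -0.11 ± 0.07 in HS and 0.19 ± 0.08 in RM-HS. Psmb6, the caspase-like site, fell by 0.37 in HS (limma adjusted p = 0.0082); its reads may be shared with the Psmb6-like row LOC100360846. Upper-quartile scaling ended the RM call of Psmb7, with the letter as a covariate it was 0.18 (adjusted p = 0.19), and the HS call of Psmb6 was lost against Sham 1 and Sham 6. Under upper-quartile scaling Psmb7 passed as lower in HS and Psmb5 in RM-HS.

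The 2 measured chaperones of the 20S core moved apart. Psmg4 (GSRG0013312, rn6 chr17:31404577-31411919), which helps form the alpha ring, ran from 543 to 759 with a median of 687 in Sham and from 387 to 526 with a median of 480.2 in RM. It held 369.7, 375, 517, 479.9 and 440.3 in HS and 467, 554 and 527 in RM-HS. RM and HS lay wholly below Sham, and RM-HS overlapped it through RM-HS 2. Psmg4 fell by 0.50 ± 0.11 in RM, 0.62 ± 0.11 in HS and 0.37 ± 0.13 in RM-HS, with limma adjusted p of 7.1e-04, 1.8e-04 and 0.029. The RM-HS call was lost without any 1 of RM-HS 1, RM-HS 3, Sham 2, Sham 3 or Sham 4 (adjusted p of 0.052 to 0.14), and none of the 3 calls held against Sham 1 and Sham 6.

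Psmg2 (GSRG0013720, rn6 chr18:63394964-63420177), which works with Psmg1 on alpha ring assembly and whose row overlaps Ptpn2, ran from 649 to 790.1 with a median of 725 in Sham and from 793 to 963 with a median of 866 in RM. It held 770.2, 766, 822, 846 and 772 in HS and 703, 811 and 849 in RM-HS. RM lay wholly above Sham. Psmg2 rose by 0.29 in RM (limma adjusted p = 0.003) and was 0.16 ± 0.08 in HS and 0.14 ± 0.09 in RM-HS. The RM call was lost with upper-quartile scaling and against Sham 1 and Sham 6, and with the letter as a covariate the difference was 0.27 (adjusted p = 0.067).

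Among the activators that cap the core without ATP, Psme3 rose in all 3 injured groups, Psme1 fell in RM and HS, and Psme2 fell in RM. Psme3 (GSRG0037758, rn6 chr10:89236256-89244038), the nuclear activator PA28 gamma, ran from 1148 to 1393 with a median of 1318 in Sham and from 1563 to 2104 with a median of 1951 in RM. It held 1785, 1709.7, 1676, 1695 and 1647 in HS and 1579, 1639.7 and 1655 in RM-HS. Every injured library was above every Sham library. Differences were 0.57 ± 0.07 in RM, 0.40 ± 0.08 in HS and 0.34 ± 0.09 in RM-HS, with limma adjusted p of 2.5e-06, 2.5e-04 and 0.0049. The RM-HS call was lost with upper-quartile scaling.

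Psme1 (GSRG0010970, rn6 chr15:34256065-34258948), the interferon-inducible PA28 alpha, whose row overlaps Emc9, ran from 5591 to 9513 with a median of 7187 in Sham and from 4544 to 5644 with a median of 5388 in RM. It held 4934, 5304, 6789.9, 5060.3 and 4693 in HS and 5809, 5971 and 5456 in RM-HS. In RM 5 libraries, in HS 4 and in RM-HS 1 lay below every Sham library. Psme1 fell by 0.46 ± 0.11 in RM and 0.43 ± 0.12 in HS (limma adjusted p of 0.0018 and 0.0055) and was -0.32 ± 0.14 in RM-HS (0.071). Psme2, PA28 beta, which pairs with Psme1 and lies beside it (rn6 chr15:34265557-34269901), fell by 0.67 ± 0.21 in RM and was -0.37 ± 0.22 in HS and -0.46 ± 0.26 in RM-HS without passing. Neither passed in RM or HS against Sham 1 and Sham 6, and with the letter as a covariate they were -0.32 and -0.55 in RM (adjusted p of 0.14 and 0.18). The log2 ratio of Psme3 to Psme1 within a library, set to 0 at the Sham mean and chosen after the values were seen, ran from -0.41 to 0.43 in Sham, 0.64 to 1.29 in RM, 0.46 to 1.01 in HS and 0.59 to 0.75 in RM-HS. The ratio was higher in every injured library than in any Sham library. Psme4, a further activator, was -0.08 in RM, -0.05 in HS and 0.00 in RM-HS.

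The inhibitor of the core, Psmf1 (GSRG0021086, rn6 chr3:147238111-147263275), ran from 1356 to 1917 with a median of 1478 in Sham and from 1252 to 1477 with a median of 1354 in RM. It held 1501, 1316, 1484, 1175 and 1287 in HS and 1400.2, 1391 and 1696 in RM-HS, and all groups overlapped. It was -0.17 ± 0.09 in RM, -0.18 ± 0.09 in HS and -0.04 ± 0.11 in RM-HS and did not pass; with upper-quartile scaling it passed as lower in RM and HS.

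The symbol rule also takes in 2 genes that are no part of the proteasome. Psmc3ip (GSRG0006850, rn6 chr10:89002118-89005213), a partner of Psmc3 known for its work in meiotic recombination and whose row overlaps Mlx, ran from 372 to 528 with a median of 438 in Sham and from 242 to 327 with a median of 258 in RM. It held 293, 300.4, 294, 264 and 237 in HS and 232, 264 and 244 in RM-HS. Every injured library was below every Sham library. It fell by 0.69 ± 0.11 in RM, 0.66 ± 0.11 in HS and 0.82 ± 0.13 in RM-HS, with limma adjusted p of 2.2e-05, 1.0e-04 and 6.2e-05. Psme3ip1 (GSRG0037265, rn6 chr19:10827371-10856745), which binds Psme3, ran from 1457 to 1859.8 with a median of 1697 in Sham and from 1522 to 2030.5 with a median of 1862 in RM, with 2061, 2041, 1849, 1859 and 1835 in HS and 2245, 1895 and 2019.5 in RM-HS. It rose by 0.28 in RM-HS (limma adjusted p = 0.028), a call lost without RM-HS 1, RM-HS 3 or Sham 4 (adjusted p of 0.06 to 0.16) and with upper-quartile scaling. RM and HS overlapped Sham, and in RM-HS every library was above Sham.

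The immunoproteasome subunits did not pass in any comparison with all libraries and the deposited scaling. By the median of the 3 genes they varied among libraries more than the members as a whole, though not for each gene in each group. Psmb8 (GSRG0016822, rn6 chr20:3990613-3993772), which replaces Psmb5, ran from 513 to 1603 with a median of 726 in Sham and from 399.6 to 869 with a median of 493 in RM. It held 449, 584, 1044, 751 and 514 in HS and 418, 761 and 395 in RM-HS. Sham 2 was the highest library of the 20 and the groups overlapped throughout. Differences from Sham were -0.53 ± 0.27 in RM, -0.30 ± 0.29 in HS and -0.65 ± 0.33 in RM-HS, with limma adjusted p of 0.11, 0.41 and 0.12. The 95% intervals ran from -1.10 to 0.04, -0.90 to 0.29 and -1.35 to 0.04.

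Psmb9 (GSRG0017858, rn6 chr20:3973446-3978845), which replaces Psmb6 and neighbours Psmb8 on chromosome 20, ran from 1847 to 6393 with a median of 2613 in Sham and from 1615 to 2951 with a median of 1908 in RM. It held 2184, 2130.3, 3886, 2219 and 1254 in HS and 2052, 1941 and 1901 in RM-HS. Sham 2 was again the highest of all and HS 3 the highest of HS. Differences were -0.42 ± 0.27, -0.38 ± 0.29 and -0.54 ± 0.34 with limma adjusted p of 0.21, 0.3 and 0.21.

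Psmb10 (GSRG0014854, rn6 chr19:37909546-37912037), which replaces Psmb7, ran from 620.4 to 2263 with a median of 1018 in Sham and from 470.4 to 957 with a median of 792 in RM. It held 738, 1010.2, 1651, 1053 and 679 in HS and 794, 972 and 627 in RM-HS. The groups overlapped, with Sham 2 and then HS 3 highest. Differences were -0.46 ± 0.27, -0.10 ± 0.29 and -0.41 ± 0.34 with limma adjusted p of 0.17, 0.8 and 0.34. Against Sham 1 and Sham 6 alone Psmb10 was 0.10 in RM, 0.46 in HS and 0.15 in RM-HS, and Psmb9 was 0.08 in RM and 0.12 in HS, opposite in sign to the differences from all 6 Sham libraries. Without Sham 2 or without HS 5 Psmb10 in HS was 0.12 and 0.03. With upper-quartile scaling Psmb8 passed as lower in RM (-0.67), and without RM-HS 2 it passed as lower in RM-HS (-0.95, limma adjusted p = 0.049).

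The median coefficient of variation of the 3 immunoproteasome genes was 52.9% in Sham, 27.1% in RM, 37.6% in HS and 21.6% in RM-HS. Over all 45 members, these 3 included, it was 11.2%, 6.90%, 7.97% and 8.49%. Psmb9 was at 3.99% in RM-HS. Psme2 was at 31.8% in Sham, 19.6% in RM, 30.4% in HS and 24.6% in RM-HS, and Psmd5 at 28.7% in RM-HS. The summed level of 13 of 15 leukocyte markers ran from 16537 to 38216 in Sham, 33074 to 47766 in RM, 18302 to 32473 in HS and 37813 to 51012 in RM-HS, and no defining marker was at 0 in every library of a group. By limma 5 of the 13 rose and 0 fell in RM, 0 rose and 2 fell in HS, and 4 rose and 1 fell in RM-HS. The neutrophil genes S100a8 and S100a9 were among those that rose in RM and RM-HS. Of all rows, 26.2% rose and 26.8% fell in RM, 23.3% and 23.2% in HS, and 21.3% and 21% in RM-HS. The part of leukocytes in the immunoproteasome levels was not tested. The log2 ratio of Psmb8 to Psmb5 within a library, with the Sham mean at 0, ran from -0.70 to 0.86 in Sham, -0.88 to 0.33 in RM, -0.60 to 0.62 in HS and -0.83 to -0.06 in RM-HS. That of Psmb9 to Psmb6 overlapped Sham in the same way. That of Psmb10 to Psmb7 ran from -0.72 to 0.94 in Sham and -0.55 to 0.87 in HS. It ran from -1.39 to -0.30 in RM and -0.90 to -0.41 in RM-HS, below the Sham mean in every library. These groups too overlapped Sham.

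**Figure D3:**
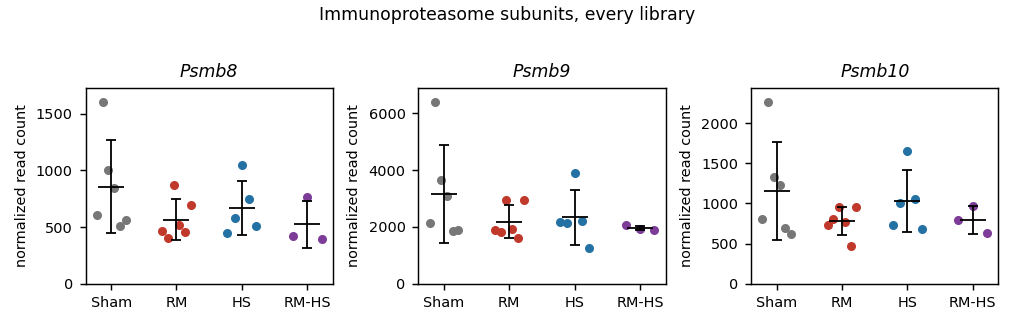
Normalised read counts (y axis, from 0) of Psmb8, Psmb9 and Psmb10 in every library by group (x axis), with the group mean as a line and the SD as a bar. The groups overlap in each panel, and the highest point in each is Sham 2, at 1603, 6393 and 2263.

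Across libraries the constitutive genes moved in a narrow band. The median deviation of the 16 subunits of the 19S cap from their mean over 20 libraries ran from -0.22 to 0.09 in Sham, -0.02 to 0.23 in RM, -0.19 to 0.01 in HS and 0.08 to 0.12 in RM-HS on the log2 scale. For the 14 constitutive 20S subunits it ran from -0.23 to 0.13, -0.02 to 0.12, -0.17 to -0.02 and 0.0012 to 0.15. Sham 1 was the lowest Sham library in 28 of 45 members and Sham 2 the highest in 35. RM 1 was the lowest RM library in 24, HS 5 the lowest HS library in 23, and RM-HS 2 the highest RM-HS library in 30. The summed level of 7 early proximal tubule markers ran from 72142 to 238747 in Sham, 239391 to 347871 in RM, 214098 to 268318 in HS and 247359 to 400728 in RM-HS, and their part in the proteasome differences was not tested.

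**Figure D4:**
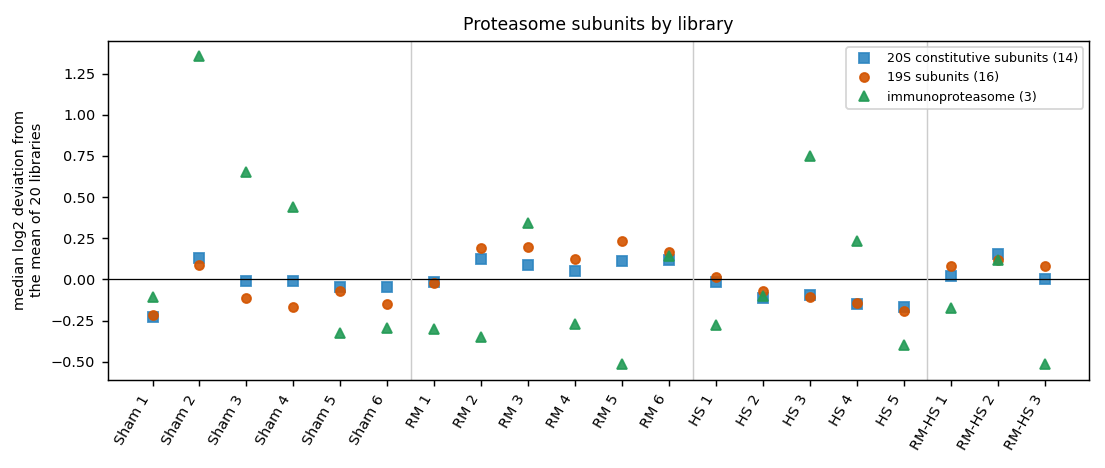
Median log2 deviation from the mean of 20 libraries (y axis) in each library (x axis) for 16 subunits of the 19S cap, 14 constitutive subunits of the 20S core and 3 immunoproteasome subunits. RM libraries other than RM 1 lie above 0 for both constitutive sets, and the immunoproteasome points spread widest, with Sham 2 highest at 1.36.

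RM and HS were next compared directly, in the fit over all 4 groups, and every difference that passed was higher in RM. Of 45 members 15 were higher in RM and 0 lower by limma, where 11.1% of all rows were higher and 12.6% lower, and in 10 every RM library was above every HS library, as in 6.04% of all rows, while in 0 every RM library was below, as in 8.21%. The 19S cap held 11 of the 15, among its 16 subunits: Psmc1, Psmc2, Psmc5, Psmc6, Psmd1, Psmd3, Psmd4, Psmd6, Psmd7, Psmd12 and Psmd14. The 20S core held Psma1, Psmb3, Psmb4 and Psmb7, among 14. The differences were largest in Psmd1 (0.42 ± 0.07, limma adjusted p = 1.3e-04), Psmb3 (0.38 ± 0.08, 0.0026) and Psma1 (0.35 ± 0.06, 3.0e-04) among those that passed. Psmb3 (GSRG0005783, rn6 chr10:85646633-85653729), a structural beta subunit, ran from 3524 to 4221 with a median of 3811 in RM and was at 3158, 2918, 3149, 2735 and 3015 in HS.

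Psmd5 was 0.41 ± 0.16 between RM and HS and did not pass (limma adjusted p = 0.064), nor did Psmd8 (-0.02 ± 0.10), the chaperones, activators, inhibitor or immunoproteasome subunits. Within the letter S, with RM 2 to RM 6 against HS 4 and HS 5, a comparison added after the data were seen, 17 were higher and 0 lower, of which 14 were among the 15, with 7.48% of all rows higher and 7.28% lower. Within the letter R a single RM library, RM 1, faces HS 1 to HS 3, so few calls could be made: 0.583% of all rows were higher and 0.639% lower, and 0 members passed. With the letter as a covariate 10 were higher and 0 lower, with 8.88% and 10.6% of all rows; Psmb4, Psmc6, Psmd12, Psmd14 and Psmd7 did not pass, at 0.28, 0.14, 0.30, 0.19 and 0.25. Leaving out single libraries gave 10 to 18 calls, and the calls of Psmd7, Psmd12, Psmd3, Psmc6, Psmb4, Psmd14 and Psmd4 were each lost without at least 1 library, that of Psmd7 without any of 15.

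**Figure D5:**
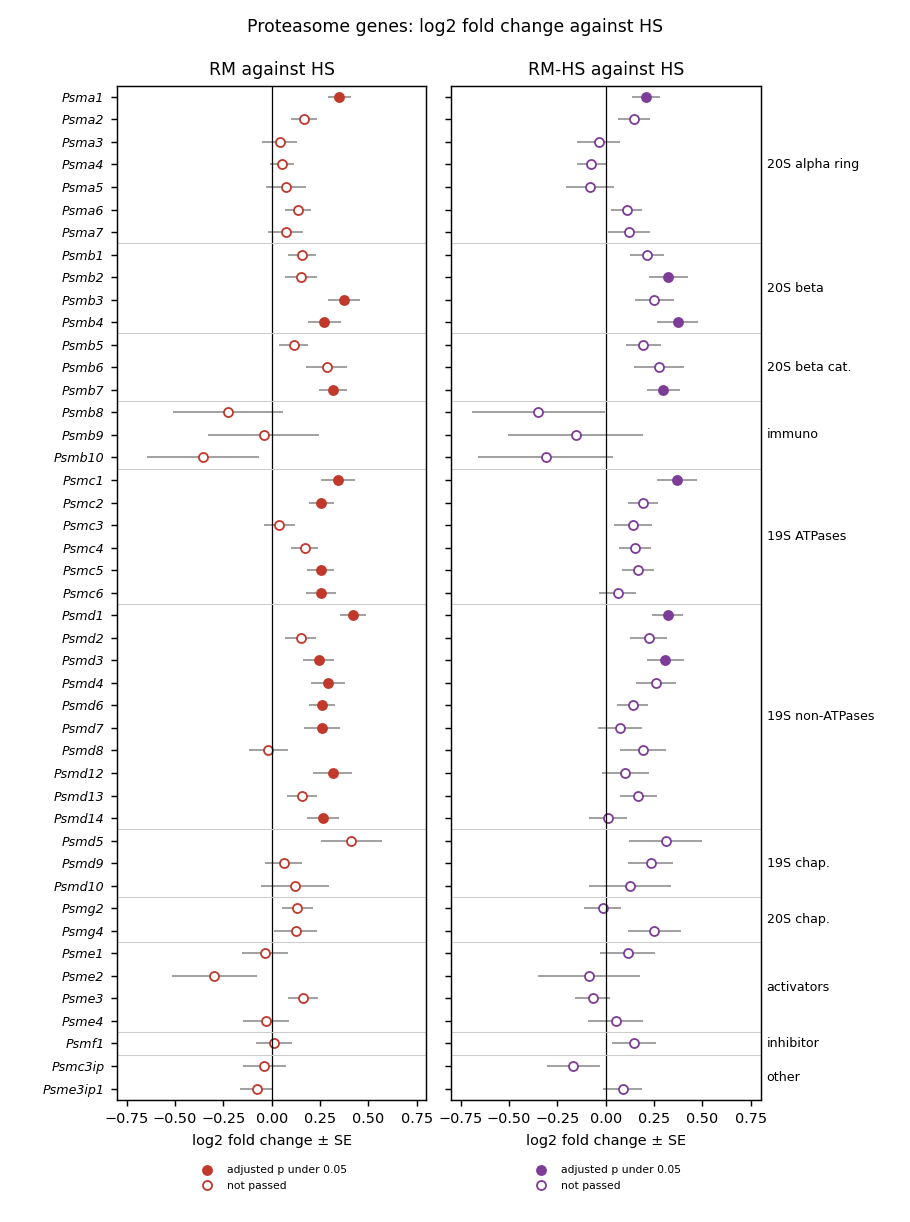
Log2 fold change against HS (x axis, with the standard error as a bar) of 45 proteasome genes (y axis, grouped by role) in RM and in RM-HS. Filled points passed at an adjusted p under 0.05; all 15 in RM and all 7 in RM-HS lie to the right of 0.

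No member was found to differ between RM-HS and RM. Between RM-HS and RM, 0 of 45 members passed in either direction by limma, where 0.395% of all rows were higher and 0.689% lower; 3 (Psmc6, Psmd14, Psme3) had an unadjusted p under 0.05, and edgeR and DESeq2 also called 0. The bounds of the 95% intervals reached 0.74 upward (Psmb10) and -0.82 (Psmb8). Without RM 1, Psmd14 and Psme3 passed as lower, where 1.01% of all rows were higher and 2% lower. Psmb2 was the member with every RM-HS library above every RM library, where 4.32% of all rows had that, and 0 members had every RM-HS library below, where 3.44% did.

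RM-HS against HS gave 7 higher members and 0 lower by limma, with 10% of all rows higher and 10.6% lower: Psma1, Psmb2, Psmb4, Psmb7, Psmc1, Psmd1 and Psmd3. Their differences ran from 0.21 in Psma1 to 0.37 in Psmb4 and 0.37 in Psmc1. In 12 members every RM-HS library was above every HS library and in 0 below, as in 12.8% and 12.2% of all rows. With 3 libraries in RM-HS the count was not stable. It was 4 without HS 5 or RM-HS 1, 2 without RM-HS 2 and 11 without Sham 1. Of all rows, 7.99% were higher and 8.73% lower without HS 5, and 6.72% and 7.8% without RM-HS 1. Without RM-HS 2 these shares were 6.94% and 8.75%, and without Sham 1 10.9% and 11.3%. With the letter as a covariate 3 members passed (6.76% and 7.6% of all rows). It was 4 when only these groups were fitted (9.08% and 8.85%) and 0 within the letter R (3.28% and 4.26%).

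Whether both injuries together gave the sum of each alone was asked as a departure from additivity, the RM-HS difference from HS minus the RM difference from Sham. It passed for 9 of 45 members, 4 above 0 and 5 below, with 14.9% and 16.8% of all rows as background. The RM and HS differences use the same RM, HS and Sham libraries as the departure. Members chosen for rising in both are therefore drawn below 0, and members chosen for falling in both above 0. Departures sorted by the direction of change are thus no independent result. It passed below 0 for 5 of the 7 members that rose in both RM and HS: -0.99 ± 0.24 in Psmd5, -0.63 ± 0.12 in Psme3, -0.52 ± 0.14 in Psmd7, -0.43 ± 0.12 in Psmc6 and -0.30 ± 0.10 in Psmd1. Psma3 and Psmd8, the other two, were -0.35 ± 0.14 and -0.17 ± 0.15 and did not pass. Above 0 it passed for the 4 members that fell in both, with 0.75 ± 0.17 in Psmg4, 0.58 ± 0.18 in Psme1, 0.53 ± 0.17 in Psmc3ip and 0.39 ± 0.11 in Psmb5. The calls of Psmb5, Psmc3ip and Psme1 were lost without RM-HS 2, that of Psmd7 without RM-HS 3, and that of Psmd1 without HS 2, RM-HS 1 or RM-HS 3 (limma adjusted p of 0.05 to 0.07). Against Sham 1 and Sham 6, Psmd5, Psmd7 and Psme3 remained. With the letter as a covariate 0 members passed and 1.29% and 2.58% of all rows did, with Psmg4 at 0.76, Psmd5 at -0.78, Psmd7 and Psme3 at -0.49 and Psmc6 at -0.11. Within the letter R 0 of all rows passed. Scaled by trimmed means 4 were above 0 and 8 below, with 13.4% and 18.3% of all rows. Scaling by the upper quartile moved the median of all rows by 0.13. With it 9 were above and 3 below, with 19.8% and 13% of all rows.

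Several genes that work with the proteasome changed by more than any of its subunits, among them Zfand2a and Maff. Values of these related genes under the other scalings and controls, or with the letter, are not given here. Among ubiquitin genes and their activating enzymes, Ubb rose by 0.56 and 0.77 in RM and RM-HS, and Uba6, an activating enzyme, by 0.62 in RM and 0.92 in HS, with 0.06 ± 0.17 in RM-HS. Rps27a, which encodes ubiquitin fused to a ribosomal protein, rose by 0.24 in RM.

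Of 12 tested factors that bind, feed or import the proteasome, from a list of 18, 7 rose and 2 fell in RM. In HS 6 rose and 2 fell, and in RM-HS 7 rose and 1 fell. Of all rows, 26.2% rose and 26.8% fell in RM, 23.3% and 23.2% in HS, and 21.3% and 21% in RM-HS. Zfand2a (AIRAP), a proteasome-binding protein induced by arsenite, was 646 ± 166 in Sham, 42834 ± 19875 in RM, 4294 ± 1975 in HS and 30898 ± 14249.9 in RM-HS. Its difference was 5.99 ± 0.30, 2.63 ± 0.32 and 5.48 ± 0.37, with limma adjusted p of 2.2e-11, 3.3e-06 and 4.6e-09. Akirin2, which carries proteasomes into the nucleus, rose by 1.48, 0.57 and 1.28 in RM, HS and RM-HS. The ubiquitin shuttle Rad23b rose by 0.90, 0.64 and 0.68, and Txnl1, a thioredoxin-like protein of the 19S cap, by 0.76, 0.56 and 0.49.

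The list of the NRF1 route runs from its release from the endoplasmic reticulum to its DNA-binding partners. It also takes in Nfe2l2 and Nfe2l3, which encode separate factors. Of its 14 genes 11 were tested, Nfe2l2 among them. Of these 9 rose and 1 fell in RM, 7 rose and 0 fell in HS, and 7 rose and 1 fell in RM-HS. The shares of all rows were 26.2% and 26.8% in RM, 23.3% and 23.2% in HS, and 21.3% and 21% in RM-HS. The small MAF partners Maff and Mafg rose by 3.89 and 1.92 in RM, 1.67 and 0.86 in HS and 3.27 and 1.91 in RM-HS. Nfe2l2 (NRF2) rose by 1.04, 0.30 and 0.81, and Nploc4, which helps extract proteins from the membrane, by 1.16, 0.69 and 1.07. Nfe2l1 itself rose by 0.25 in RM and 0.40 in HS and did not pass in RM-HS. Among the 8 members with TGACNNNGC in their window, Psma3, Psmb2 and Psmd1 rose in RM, Psmb5 fell, and Psmb6, Psmd3, Psmd9 and Psme4 did not pass. Of all 45 members 20 rose and 5 fell in RM.

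Among genes of MHC class I loading and interferon signalling, B2m, the light chain of class I, rose by 0.43, 0.43 and 0.55 in RM, HS and RM-HS. Stat2 fell by 0.54 in RM, and Irf1, a regulator of immunoproteasome genes, rose by 0.64 in RM. Among the 7 members with the interferon regulatory factor site in their window, Psmd7 rose and Psme2 and Psmg4 fell in RM. The other members with the site, Psma4, Psmb3, Psmb8 and Psmb10, did not pass, where 20 of all 45 members rose and 5 fell.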

How the data were processed

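Per the submitters' processing notes, FastQC 0.11.2, Picard 1.119, SAMtools 1.0, STAR, featureCounts of Subread 1.5.0 and DESeq2 were used with build rn6; the strand setting of the counting is not given in the sources used here. The deposited values are a normalised signal, gene read counts that the authors divided by a size factor per library. In each library 100% of values came out as whole reads, within 0.1 read, after scaling back. Rows reaching 10 in at least 3 of 20 libraries were tested on log2(value + 1) with limma 3.58.1 in R 4.3.3, in 1 fit over the 4 groups, with Benjamini-Hochberg adjustment over 15954 rows and a threshold of 0.05. On the recovered reads edgeR 4.0.16 called 25 members in RM and 15 in HS against Sham, and DESeq2 1.42.0 called 26 and 15. Of all rows, edgeR had 25.7% higher and 25.2% lower in RM and 24% and 20.9% in HS. DESeq2 had 26.3% and 27% in RM and 23.7% and 24.1% in HS. The fit was tested on simulated data with known changes.

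Members and gene lists were chosen with earlier results of these data known. Values by library are given for the immunoproteasome subunits and for the 2 members of each role with the smallest adjusted p in RM-HS against Sham, and related lists by counts and up to 4 genes with the smallest adjusted p. Other genes are named by their calls. Some genes of the ubiquitin and the class I and interferon lists, and the counts of both lists, are not reported here. Replicates were numbered in accession order. Depth ran from 45047179 to 109940948 reads. Alternatives were other scalings, pseudocounts, filters and tools, the letter of the library name, other controls and each library left out.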

Additional observations from a re-analysis of the deposited data

Results flagged for a closer look

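In 9 of 135 sets of a gene and a group of 5 or 6 libraries, 1 library stood far from the others by Dixon's test, which flags about 1 in 20 groups by chance. RM 1, the RM library whose name begins with R, was the one in 4 of the 9. In Psmd5 it was at 2575 against 4409 to 4964 in the other RM libraries. In Psmd1 it was at 3491 against 4261 to 4485 in the other RM libraries. In Psma1 it was at 5803 against 6402 to 6743 in the other RM libraries. In Psma3 it was at 1493 against 1866 to 2024 in the other RM libraries. The part of the letter in this was not tested. Psmd4 was at 3016 in Sham 1 against 4026 to 4597 in the other Sham libraries. Psmd7 was at 3507 in Sham 2 against 2542 to 2871 in the other Sham libraries. Psma1 was at 5515 in HS 1 against 4921 to 5051 in the other HS libraries. Psma2 was at 5571 in HS 1 against 4875 to 5069 in the other HS libraries. Psma3 was at 1605 in HS 3 against 1828 to 1875 in the other HS libraries. 

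The effect of RM differed with and without HS for 9 of 45 members, by limma's test of the difference itself on the log2 scale (SE given). Of all rows, 14.9% passed above 0 and 16.8% below, so the members did not pass more often than other rows. It was smaller with HS by -0.99 ± 0.24 in Psmd5, -0.63 ± 0.12 in Psme3, -0.52 ± 0.14 in Psmd7, -0.43 ± 0.12 in Psmc6 and -0.30 ± 0.10 in Psmd1. It was larger, or less of a fall, by 0.75 ± 0.17 in Psmg4, 0.58 ± 0.18 in Psme1, 0.53 ± 0.17 in Psmc3ip and 0.39 ± 0.11 in Psmb5. With the letter as a covariate 0 of the 9 passed, although Psmg4 was 0.76 and Psmd5 -0.78 there. Of all rows, 1.29% passed above 0 and 2.58% below in that fit.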

How the results depend on the processing

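No paired analysis was possible because the labels give no replicate numbers shared between groups. Counts of members called moved by more than 1.5 times as follows. Against Sham, RM had 11 with the letter as a covariate, where 15.2% of all rows rose and 13.3% fell. HS had 5 against Sham 1 and Sham 6, where 14.6% of all rows rose and 11.1% fell. It had 7 within the letter R, with 16.8% and 16.3% of all rows. RM-HS had 8 when only RM-HS and Sham were fitted, with 17.6% and 18.4% of all rows. Counts of RM against Sham and of RM against HS also moved within the letter R. RM is 1 library there, so these counts say little. RM-HS against HS had 3 with the letter as a covariate, 0 within the letter R and 4 when only those groups were fitted. Of all rows, 6.76% were higher and 7.6% lower with the letter as a covariate. Within the letter R these shares were 3.28% and 4.26%, and with only those groups 9.08% and 8.85%. The departure from additivity had 3 against Sham 1 and Sham 6, where 8.2% of all rows were above 0 and 11.5% below. It had 0 with the letter as a covariate, with 1.29% and 2.58% of all rows. Its count also moved within the letter R, where RM is 1 library.

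Leaving out 1 library at a time gave 21 to 26 calls in RM, 12 to 17 in HS and 9 to 16 in RM-HS against Sham, 10 to 18 in RM against HS, 0 to 2 in RM-HS against RM, 2 to 11 in RM-HS against HS and 6 to 12 for additivity. Shares of all rows moved too. Against Sham, 24.5% to 26.4% rose and 24.5% to 27.2% fell in RM. In HS these were 21.1% to 23.7% and 20.6% to 23.4%, and in RM-HS 16.4% to 21.7% and 15.3% to 21.4%. RM against HS had 8.73% to 12% higher and 10.2% to 13.1% lower. RM-HS against RM had 0.00627% to 1.01% higher and 0.113% to 2% lower. RM-HS against HS had 5.43% to 10.9% higher and 7.2% to 11.3% lower. Additivity had 11.3% to 16.6% above 0 and 13.7% to 18.1% below. The extremes without RM-HS 1, RM-HS 2, RM-HS 3, RM 1, HS 5 and Sham 1 stand in the report.

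Some log2 differences changed sign. Within the letter R, RM against Sham was -0.039 in Psma5 and -0.034 in Psmd14, RM against HS was -0.060 in Psmd12, -0.090 in Psmd14 and -0.11 in Psmd7, and HS against Sham was 0.036 in Psmb10. Against Sham 1 and Sham 6, RM was 0.10 in Psmb10 and 0.081 in Psmb9, HS was 0.0041 in Psma7, 0.46 in Psmb10, 0.13 in Psmb8, 0.12 in Psmb9 and 0.027 in Psme2, and RM-HS was 0.15 in Psmb10. With 1 library left out Psmb10 in HS ran from -0.29 without HS 3 to 0.12 without Sham 2, and was 0.030 without HS 5. The cause was not tested. The differences that passed among the members were followed over the settings, and those of Psmb8, Psmb9, Psmb10 and Psme2 against Sham. Under other settings 942 values kept direction and side of the threshold, 179 kept direction but no longer passed, and 14 changed direction. With a library left out these numbers were 1789, 128 and 2. Genes of the related lists and markers are not in these counts. With 3 RM-HS libraries the standard errors are widest there, which limits what can be detected.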
